A study of Sus scrofa with 6 samples.

Results

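TFPI2, which encodes tissue factor pathway inhibitor 2, was covered by 120 of the 14091 CpGs with a read in the deposited chromosome 9 tables. Its CpGs were taken from the deposited annotation, as all CpGs placed in a TFPI2 exon, intron or promoter, also where GNGT1 is named at the same CpG. No measured value entered that choice. They comprise 11 promoter CpGs, 45 exon CpGs and 64 intron CpGs, and all 64 intron CpGs also lie in an intron of GNGT1. In RefSeq (Sscrofa11.1) TFPI2 spans chr9:73684236-73694663 and GNGT1 spans chr9:73403647-73717746. The promoter columns put TFPI2 on the minus strand and GNGT1 on the plus strand, so TFPI2 is read against the gene that surrounds it.

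The methylation calls come from bisulfite sequencing of 6 whole pig embryos at embryonic day 21, all Landrace x Yorkshire x Duroc (LYD). The 3 control embryos are labelled untreated. The 3 parthenotes arose from electrically stimulated oocytes without sperm, hold maternal genomes only, and were carried by 2 surrogate gilts. The labels do not say which embryos shared a litter, so p-values measure the spread between these embryos only.

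TFPI2 is a secreted Kunitz-type inhibitor of serine proteases such as plasmin and trypsin, is held in the extracellular matrix, and is abundant in placenta. In the mouse it belongs to the imprinted cluster around Peg10 and Sgce and is expressed from the maternal copy in placenta. GNGT1 encodes the gamma subunit of the G protein transducin of rod photoreceptors. Cytosines of most CpGs in mammalian DNA are methylated, while CpG-dense stretches at gene starts are commonly not. A stretch methylated on 1 parental copy only would read at a middle level in a control, and near full or near none in a parthenote.

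Inside TFPI2 lay a sharply bounded stretch with almost no methylation in all 6 embryos. It held 49 consecutive CpGs over 962 bp (chr9:73688179-73689140), all under 20% when the reads of the 6 embryos were pooled, which is how the stretch was delimited. It is called the unmethylated run below. The level was 2.72%, 3.69% and 3.04% in controls 1 to 3 and 3.61%, 1.74% and 2.98% in parthenotes 1 to 3. The groups overlapped. The mean was 3.15% ± 0.494 (SD, n = 3) for controls, against 2.78% ± 0.952 (SD, n = 3) for parthenotes. The widest 95% Wilson interval of a single embryo ran from 2.60 to 5.22% (control 2), on 813 to 1039 reads per embryo. These intervals do not cover the spread between embryos. They can be too narrow even for counting error, because a read over several CpGs counts at each of them and the reads carry no molecular identifiers. As the run was found from its level, the low level is a description and has no test.

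The run does not lie at the annotated start of TFPI2. Its nearest CpG is 5523 bp downstream of that start, and the annotated promoter holds none of it. The promoter columns name 1 transcript of TFPI2, and whether another transcript starts at the run was not tested, so start and promoter here mean those of that transcript. It covers the second and the third exonic stretch with CpGs, in the order of transcription, with the intron between them and part of the next intron. Of its 49 CpGs, 33 were exonic and 16 intronic. The second exonic stretch (chr9:73688802-73689140, 22 CpGs) was at 1.504% ± 1.33 (SD, n = 3) for controls, against 1.66% ± 0.384 (SD, n = 3) for parthenotes. The third (chr9:73688372-73688529, 11 CpGs) was at 1.28% ± 1.08 (SD, n = 3) and 1.43% ± 0.475 (SD, n = 3). The intron between them (10 CpGs) was at 0.623% ± 0.546 (SD, n = 3) and 0.567% ± 0.494 (SD, n = 3). All 3 stretches were nearly free of methylated reads, with overlapping groups.

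Single CpGs of the run were nearly as uniform. At 18 of the 49 no methylated read was found in any embryo, and 38 stayed under 10% in all 6. The deepest CpG without a methylated read, at chr9:73688393 in the third exonic stretch, had 0 of 150 reads over the 6 embryos, which allows a level of up to 2.00%. The run was covered more thinly than the rest of the interval (median 14 to 21 reads per CpG in single embryos, against 27 to 29), and 13 of its CpGs had under 10 reads in some embryo. The highest levels lay at the edge that transcription reaches last. There the 6 intronic CpGs ranged from 0 to 25% in single embryos, and the 10 CpGs of the intron inside the run did not exceed 9.09%.

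**Figure D1:**
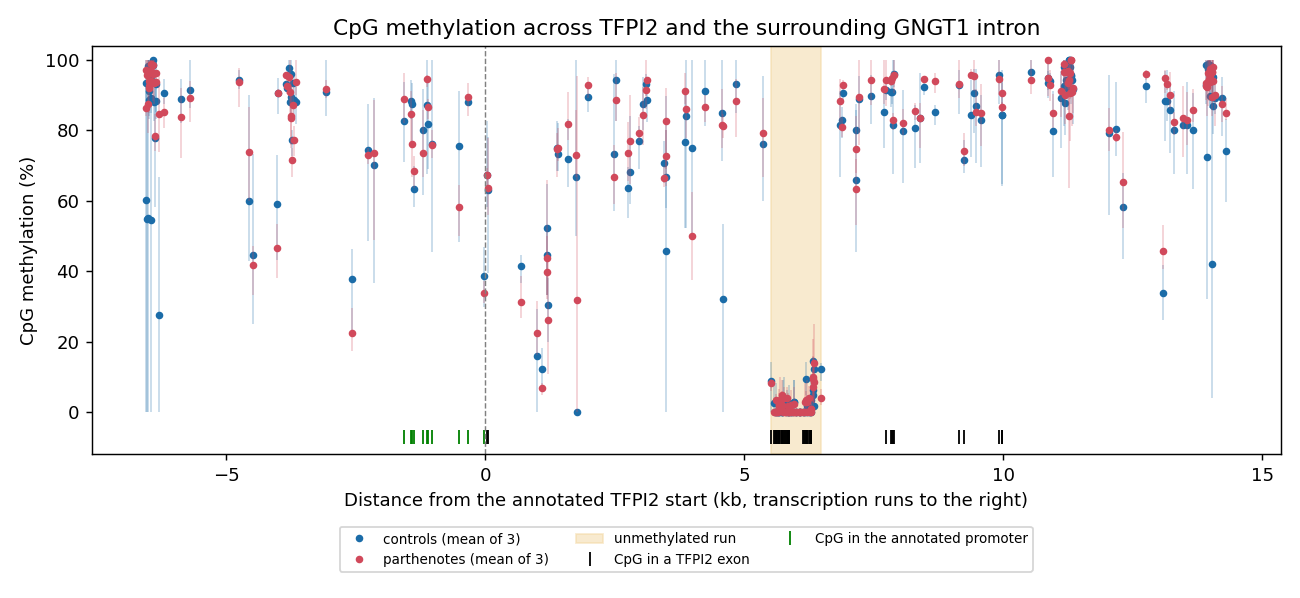
Methylation of each CpG (%) against the distance from the annotated TFPI2 start (kb, positive downstream), across TFPI2 and 5000 bp of GNGT1 intron on either side. Dots are means of the embryos of a group with a read there and thin lines run from the lowest to the highest embryo. The shaded run of 49 CpGs sits near 0 in both groups, 5523 bp or more downstream of the start.

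Both edges of the run were steep in every embryo. On the side of the annotated start, the last CpG in the run (chr9:73689139, exonic) was at 0 to 14.3% and the next CpG 167 bp away (chr9:73689306, intronic) at 60 to 95.5%. That next CpG read 73.1%, 95.5% and 60% in controls 1 to 3 and 66.7%, 89.3% and 81.6% in parthenotes 1 to 3. The step between these neighbours was 57.1 to 83.4 percentage points. On the side of the gene end, the last CpG in the run (chr9:73688179, intronic) was at 2.08 to 14.0%, and the next CpG (chr9:73687821, intronic) at 66.7 to 94.7%. No CpG lies in the 358 bp between them, so the position of that edge was not resolved further. The step there was 57.8 to 92.7 percentage points. At the inner CpG of this edge the levels were 8.82%, 14.0% and 14.0% in controls and 3.85%, 6.45% and 2.08% in parthenotes. All 3 parthenotes were thus below all 3 controls there, but the CpG did not pass the test (26 to 50 reads, edgeR adjusted p = 1, unadjusted p = 0.0747).

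**Figure D2:**
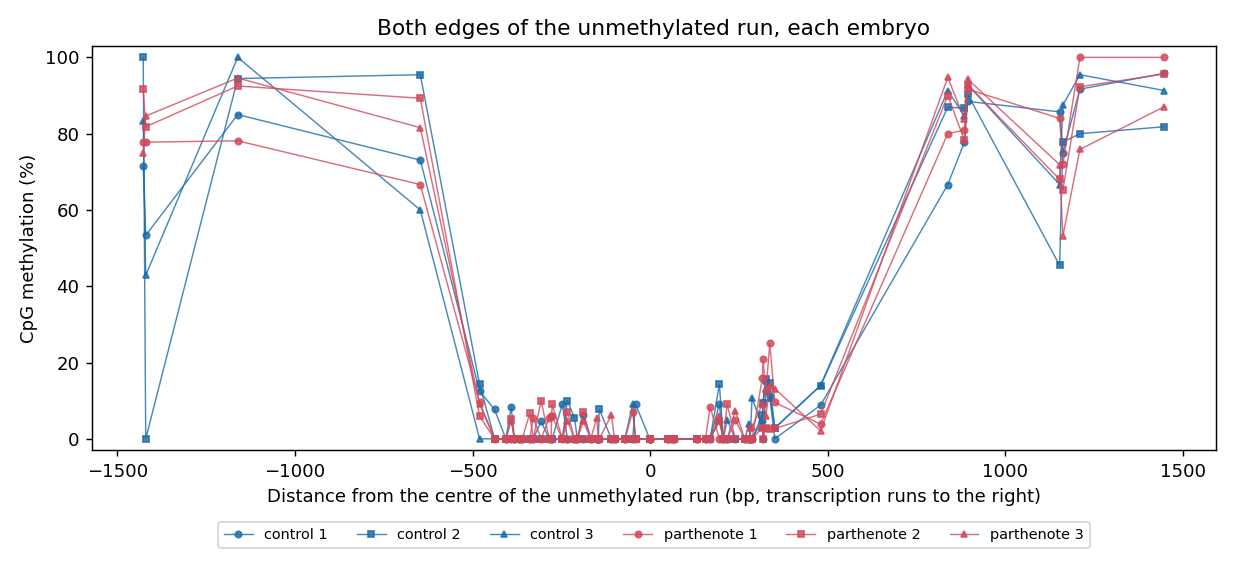
Methylation of each CpG (%) in each embryo against the distance from the centre of the run (bp). All 6 embryos fall from 60% or more to under 15% between neighbouring CpGs at both edges.

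The same search over the whole interval found 10 runs of at least 20 consecutive CpGs under 20%. The TFPI2 run was the fifth by number of CpGs. Of the 10 runs, 8 lay within 500 bp of the annotated start of a gene whose strand the tables give. Those 8 were at the starts of CASD1, PPP1R9A, CALCR with GNGT1, PON2, COL1A2, BET1, PDK4 and GNG11. The TFPI2 run and a run of 20 CpGs in intergenic sequence between ASB4 and DYNC1I1 were the other two. In density the TFPI2 run, with 5.09 CpGs per 100 bp, was within the range of the 8 runs at gene starts, 3.89 (COL1A2) to 8.07 (PPP1R9A). In level it had the highest mean of the 10 runs, 2.97% over the 6 embryos, followed by the runs at PDK4 (2.53%), GNG11 (2.29%) and the joint start of CALCR and GNGT1 (2.25%). Its embryos, at 1.74 to 3.69%, overlapped those of these 3 runs. The lowest mean was 0.425% in the intergenic run, and the lowest at a gene start 0.915% (CASD1). Of 119 windows of 500 bp with 15 or more CpGs, 18 were under 10% in all 6 embryos, among them both TFPI2 windows of that density. Of 1792 sparser windows, 5 were.

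**Figure D3:**
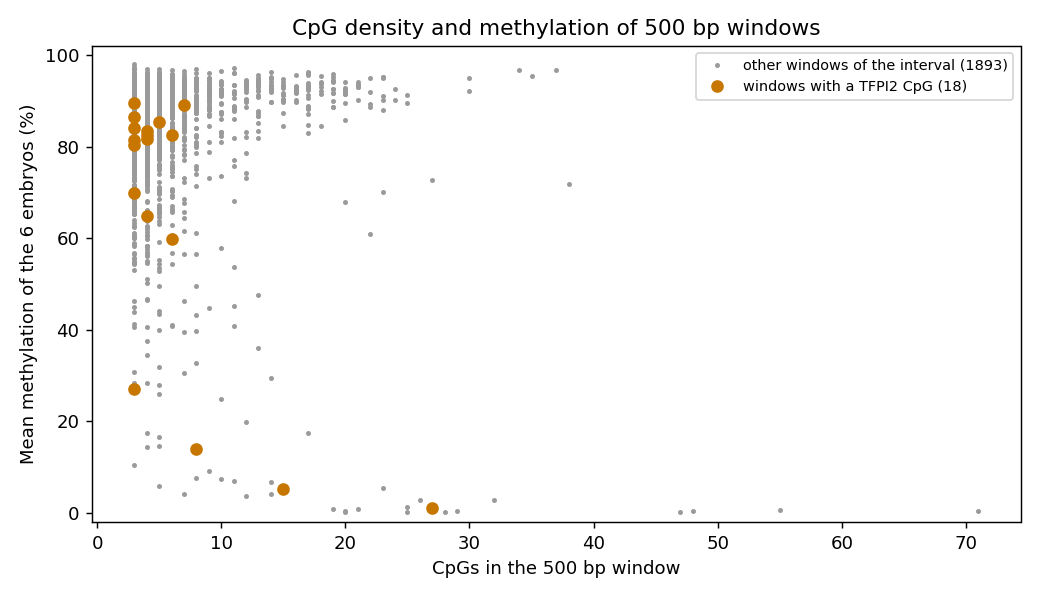
Mean methylation of the 6 embryos (%) against the number of CpGs for each 500 bp window that could be tested (3 CpGs and 30 reads per embryo or more). The 2 TFPI2 windows with 15 and 27 CpGs lie near 0, and most of the other 16 lie with the highly methylated sparse windows.

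The annotated promoter was methylated. It is the stretch upstream of the annotated start (chr9:73694683-73696228, 11 CpGs over 1546 bp), sparse at 0.712 CpGs per 100 bp and wholly inside the GNGT1 intron. Its level was 64.9%, 84.4% and 81.8% in controls 1 to 3 and 73.4%, 76.0% and 76.7% in parthenotes 1 to 3. Control 1 was lowest and the other two controls highest, so the parthenotes lay within the range of the controls. The group means were 77.04% ± 10.6 (SD, n = 3) and 75.3% ± 1.76 (SD, n = 3), on 211 to 308 reads per embryo. Within the promoter the CpG nearest to the start stood apart. At chr9:73694683, 20 bp upstream, the level was 39.3%, 46.9% and 30.0% in controls and 33.3%, 31.03% and 37.1% in parthenotes. The nearest exonic CpG, 47 bp from it, was at 58.3 to 82.8%, and higher in all 6 embryos.

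Another stretch of lower methylation lay in the first intron, just downstream of the annotated start. Its 6 CpGs (chr9:73693450-73693963, 701 to 1213 bp downstream) each had a pooled level under 60%. They were at 39.7%, 29.03% and 39.8% in controls 1 to 3 and 43.02%, 23.3% and 23.2% in parthenotes 1 to 3. Parthenote 1 was the highest of all 6 embryos, and the other two parthenotes were the lowest. The stretch was chosen for its level and has no test. It is thinly covered, with 62 to 179 reads per embryo, and 3 of the 6 CpGs carried a sign of a sequence variant or a strand without a call. The deepest of them, at chr9:73693962 (31 to 55 reads), was at 43.6%, 36.6% and 44.7% in controls and 38.7%, 26.8% and 28.0% in parthenotes. The groups overlapped there, and the difference of -10.5 percentage points did not pass the test (edgeR adjusted p = 1). As a whole the stretch was partly methylated in every embryo.

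The rest of the gene was methylated. Outside the run, 62 of 71 CpGs had a pooled level of 60% or more. The 9 below it were the promoter CpG nearest the start, the 6 of the lower stretch, and 2 untested CpGs of the first intron that carried a variant sign. The 12 exon CpGs outside the run were at 76.4%, 88.5% and 88.7% in controls and 84.5%, 87.5% and 85.9% in parthenotes. The 48 intron CpGs outside it were at 70.3%, 83.1% and 78.8% in controls and 78.4%, 75.8% and 76.2% in parthenotes. Both sets overlapped between the groups, with control 1 the lowest embryo. From the fourth exonic stretch on, levels stayed high to the gene end. The fourth (chr9:73686774-73686926, 5 CpGs) was at 89.9% ± 3.01 (SD, n = 3) for controls, against 92.3% ± 1.90 (SD, n = 3) for parthenotes. The 3 CpGs of the 3′ UTR (chr9:73684680-73684747) were at 88.3% ± 13.8 (SD, n = 3) and 90.7% ± 0.568 (SD, n = 3). Control 1 was at 72.4% in the 3′ UTR and the other 5 embryos at 90.4 to 96.8%. The highest CpG of the gene, at chr9:73686774 in the fourth exonic stretch, was at 90.6 to 100% in single embryos. The first exonic stretch, 2 CpGs beside the start, was lower, at 65.4% ± 15.6 (SD, n = 3) and 65.3% ± 6.64 (SD, n = 3).

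Control 1 read low beyond TFPI2 as well. Over the CpGs of the interval that are not in TFPI2 its level was 74.9%, against 83.2 to 85.6% in the other 5 embryos. At TFPI2 it alone was the lowest of the 6 embryos at 35 of the 69 CpGs outside the run with a read in all 6. Values without control 1 are given below for the set differences and for the levels relative to the interval.

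**Figure D4:**
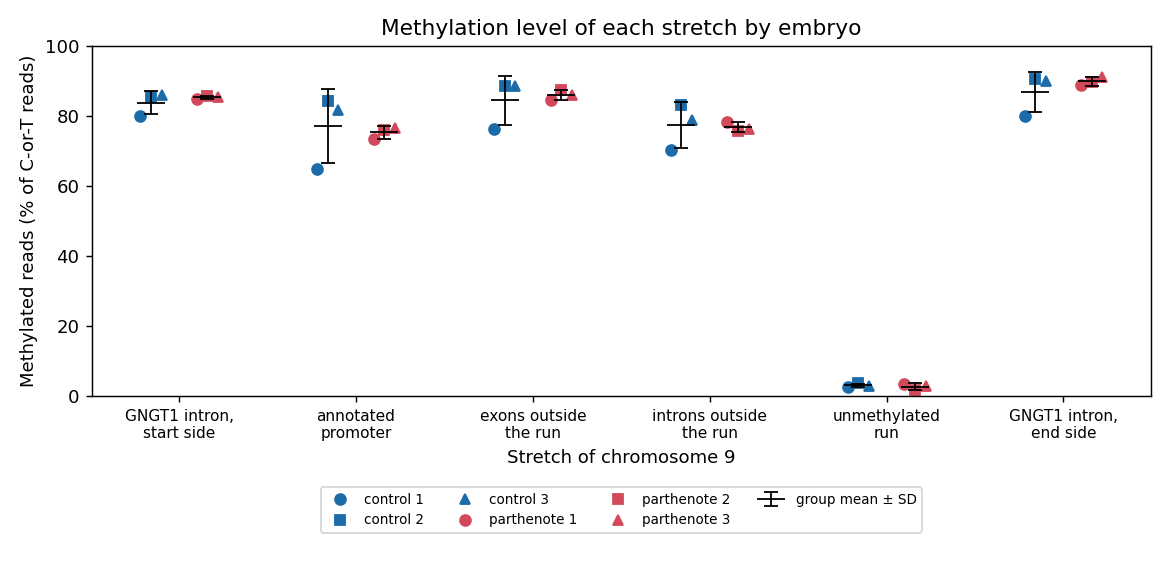
Share of methylated reads (%) in each embryo, with the group mean and SD, for the 2 flanks of GNGT1 intron, the annotated promoter, the exons and introns outside the run, and the run. Groups overlap in each stretch, and the run lies under 4% in all 6 embryos.

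No TFPI2 set differed between the groups by the test fitted over the promoter, exon and intron sets of all genes, which called 3 of 48 sets (6.25%). The promoter difference was -1.69 percentage points (edgeR adjusted p = 0.858). Without control 1 it was -7.75 points, still uncalled (edgeR adjusted p = 0.552). With the promoter redefined around the RefSeq start, reaching 1000 bp up and 500 bp into the gene, it was -4.75 points (edgeR adjusted p = 0.818). That smaller set holds the 2 CpGs of the first exonic stretch and the promoter CpGs at chr9:73694683, 73694999 and 73695159. The last of these has the largest negative difference of the tested TFPI2 CpGs, given below. The exons were at 36.2% ± 3.46 (SD, n = 3) for controls, against 32.8% ± 1.69 (SD, n = 3) for parthenotes, a difference of -3.47 points (900 to 1081 reads, edgeR adjusted p = 0.718). The exon level mixes the run with methylated exons, since 33 of the 45 exon CpGs lie in the run. With the run left out the exon difference was 1.46 points (edgeR adjusted p = 0.905). For the exon CpGs in the run alone it was 0.0118 points. The exon level pools reads, so it also depends on how many exon reads fall in the run. Those were 592 of 1066, 501 of 900 and 585 of 929 reads in controls 1 to 3. In parthenotes 1 to 3 they were 561 of 916, 588 of 940 and 706 of 1081 reads. With equal weight for each CpG the exon difference was 0.847 points. With the run and pooled reads, the exon difference was -4.04 points without control 1, -1.53 points without control 2 and -7.72 points on the minus strand alone, all uncalled. The introns were at 62.0% ± 3.19 (SD, n = 3) and 63.2% ± 2.10 (SD, n = 3), a difference of 1.23 points (1296 to 1760 reads, edgeR adjusted p = 0.858). Without control 1 the intron difference was -0.496 points (edgeR adjusted p = 0.904). With the run included, the TFPI2 introns were the lowest of 15 intron sets and the TFPI2 exons the third lowest of 16 exon sets. Both places change when the run is left out of TFPI2 alone. Outside the run the TFPI2 introns were at 77.4% in controls and 76.8% in parthenotes, above the introns of BET1 (69.7% and 70.2%). The TFPI2 exons outside it were at 84.5% and 86.0%. The sets of other genes, BET1 among them, kept their own low runs here, and no ranking without all runs was made. The TFPI2 promoter was 14th from the lowest of 17.

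No single TFPI2 CpG passed either. Of the 120 CpGs, 92 had at least 10 reads in every embryo and were tested, 36 of them in the run. edgeR called 0 of the 92, against 53 of 12359 over the interval (0.429%), and 0 had an unadjusted p under 0.05, against 3.29% over the interval. limma and DESeq2 called 0 and 0, but their calls over the interval were not counted. The difference between group means was positive at 56 of the 92, negative at 28 and 0 at 8. The share of positive differences over the interval was not counted. Outside TFPI2 the level of the interval was itself 3.23 points higher in parthenotes (exact permutation p = 0.5). All 3 parthenotes were above all 3 controls at 3 of the 92 CpGs, where 6.04% of all tested CpGs showed this, and below them at 1, the run CpG at chr9:73688179 given above, where 1.47% did. The largest positive difference was 14.3 points at chr9:73690802 in the first intron, where controls 1 to 3 were at 52.2%, 86.7% and 91.7% and parthenotes at 89.5%, 87.5% and 96.4%. Control 1 alone set that difference apart (edgeR adjusted p = 1). The largest negative difference was -17.3 points at chr9:73695159 in the promoter, with controls at 48.4%, 91.3% and 86.7% and parthenotes at 50.0%, 64.5% and 60% (15 to 31 reads, edgeR adjusted p = 1). There control 1 was as low as the lowest parthenote and the other two controls were above all others.

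**Figure D5:**
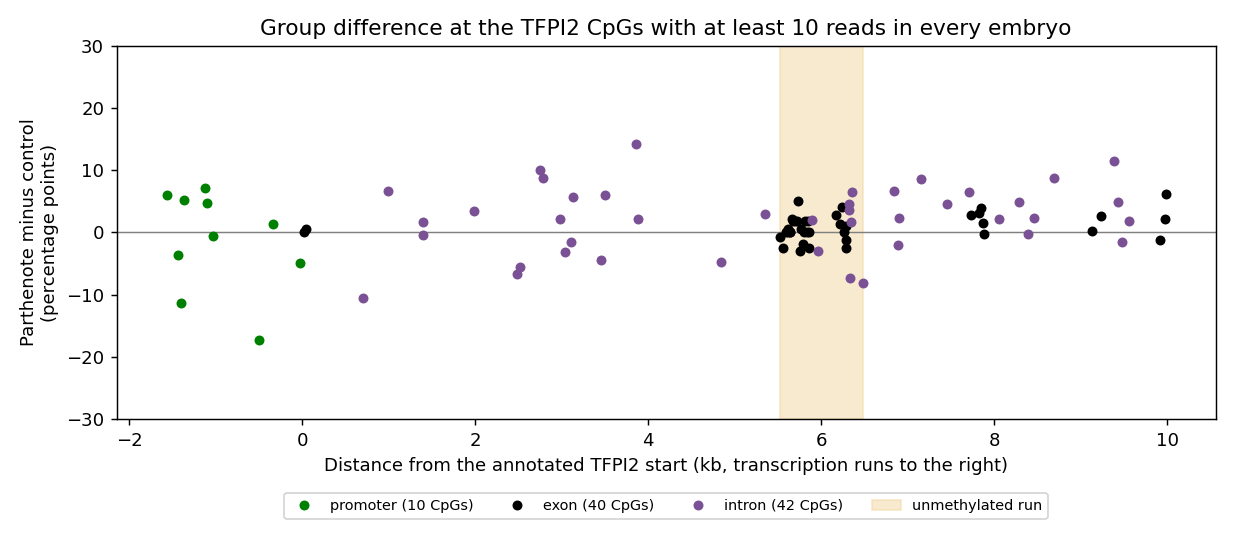
Difference of group means (parthenote minus control, percentage points) at the 92 tested TFPI2 CpGs, 10 in the promoter, 40 in exons and 42 in introns, against the distance from the annotated start (kb). Differences scatter around 0 from -17.3 to 14.3 points, and in the shaded run they lie between -8.13 and 6.58 points.

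The fixed windows gave the same count. TFPI2 CpGs fell in 23 windows of 500 bp, of which 18 could be tested, and edgeR called 0 of them, against 6 of 1911 over the interval (0.314%). limma and DESeq2 also called 0 and 0, again without a count of their calls over the interval. By edgeR 0 of the 18 had an unadjusted p under 0.05 (2.46% over the interval). The window with the most CpGs, 27 in the middle of the run (chr9:73688500-73688999), was at 0.900% ± 0.559 (SD, n = 3) for controls, against 1.19% ± 0.239 (SD, n = 3) for parthenotes (357 to 432 reads, edgeR adjusted p = 0.995). The window beside it toward the gene end (chr9:73688000-73688499, 15 CpGs) was at 5.61% ± 1.65 (SD, n = 3) and 4.96% ± 2.74 (SD, n = 3). The window with the largest difference, chr9:73693500-73693999 in the lower stretch of the first intron, held 3 CpGs. It was at 35.4%, 29.4% and 32.1% in controls and 27.03%, 18% and 21.1% in parthenotes. All 3 parthenotes were below all 3 controls there, with a difference of means of -10.2 points, on 51 to 100 reads (edgeR adjusted p = 0.995, unadjusted p = 0.206). It was 1 of 18 TFPI2 windows with all parthenotes below all controls, against 0.419% of windows over the interval. The opposite also held in 1 of the 18, against 6.59% over the interval. That window, chr9:73691500-73691999 in the first intron, was at 76.0%, 83.6% and 81.8% in controls and 84.2%, 84.5% and 84.7% in parthenotes (edgeR adjusted p = 0.995).

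CpGs with the pattern of a parental imprint were then counted, as controls at 35 to 65% with parthenotes at 80% or more, or at 20% or less. Of the 92 tested TFPI2 CpGs, 5 had controls at 35 to 65%. Of these 5, 0 had parthenotes at 80% or more and 0 at 20% or less. Over the interval, 964 tested CpGs had controls in that range, of which 149 had parthenotes at 80% or more and 2 at 20% or less. The 5 TFPI2 CpGs were 2 in the promoter, 1 in the first exonic stretch and 2 in the first intron, and their parthenote means were 31.2 to 73.7%. A level is an average over all cells of a whole embryo, so a pattern limited to few cells could not be seen.

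Each TFPI2 class was next set against the surrounding GNGT1 intron, over the GNGT1 intron CpGs within 5000 bp of the outermost TFPI2 CpG. The flank beside the promoter (start side, 42 CpGs) was at 79.98 to 85.9% in single embryos, and the flank beyond the 3′ UTR (end side, 50 CpGs) at 80.1 to 91.2%. Of these 92 flank CpGs, 88 had a pooled level of 60% or more and 0 were under 20%. In the start-side flank control 2 read 0% at chr9:73700951, 73701110, 73701168, 73701184 and 73701199. The parthenotes were at 73.9 to 100% there, control 1 at 66.7 to 100% and control 3 at 15.8 to 87.5%. The lowest parthenote value in this flank was 17.2%, at chr9:73697238. Within embryos the promoter minus the start-side flank was -8.36 points ± 5.07 (SD, n = 6), from -15.04 (control 1) to -1.01 (control 2). Against the end-side flank it was -12.2 points ± 4.02 (SD, n = 6). The introns were at -22.0 and -25.8 points from the start-side and end-side flank, and the exons at -50.1 and -53.9 points. Each of the 6 differences had the same sign in 6 of 6 embryos, with a 2-sided exact sign-flip permutation p of 0.031, the smallest possible, which adjustment over the 6 left as it was. The exon differences rest on the run, and the intron differences do so in large part. Without it the introns together were at -7.46 and -11.3 points from the start-side and end-side flank, still lower in 6 of 6 embryos. These introns include the lower stretch downstream of the annotated start, at 23.2 to 43.02% in single embryos. The start-side difference without that stretch was not tested. The intron holding it (31 CpGs) was at 71.3% in controls and 69.7% in parthenotes, against 83.8% and 85.3% in the start-side flank. The intron nearest the gene end (4 CpGs) was at 86.4% and 90.5%, and the intron before it (5 CpGs) at 83.7% and 87.6%. Without the run the exons differed from the start-side flank by 0.681 points (exact permutation p = 0.562) and from the end-side flank by -3.14 points, lower in 6 of 6 embryos.

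The promoter difference on the start side depends on how far the flank reaches. Against 2000 bp of flank the promoter was higher by 6.97 points, and against 10000 bp its difference was -7.56 points. The flank of 2000 bp holds only the CpGs at chr9:73696817, 73696929, 73697238 and 73697737, against 42 CpGs in the flank of 5000 bp. The CpGs next to the promoter were themselves low in some embryos. The first flank CpG (chr9:73696817, 590 bp beyond the promoter) was at 36.6% in control 1 and 48.8% in parthenote 1, and at 83.8 to 89.2% in the other 4 embryos. The third, at chr9:73697238, was at 17.2 to 46.4% in all 6. The outermost promoter CpG was at 71.0 to 96.3%, and the first flank CpG was below it in 4 of 6 embryos. At the gene end the last exonic CpG was at 64.9% in control 1 and 85.3 to 97.1% in the other 5 embryos, and the next GNGT1 CpG, 559 bp on, at 90.5 to 100%.

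The edges did not differ between the groups beyond the spread of the embryos. The group difference of the 6 class-minus-flank values was -6.53 to -0.364 points (parthenote minus control), with exact permutation p of 0.3 to 1. With 3 against 3 embryos the smallest possible p is 0.1. Set against each embryo's own level over the rest of the interval, the TFPI2 exons were at -45.01 points ± 4.97 (SD, n = 3) in controls and -51.7 points ± 2.69 (SD, n = 3) in parthenotes (exact permutation p = 0.1, or 0.4 adjusted over 4 such comparisons). That relative exon value was -39.8, -45.5 and -49.7 in controls and -49.7, -50.6 and -54.8 in parthenotes. The groups did not overlap, but control 3 and parthenote 1 nearly touched. Leaving out 1 embryo at a time gave -9.04 (without control 3) to -4.09 points (without control 1). Without the run the exon difference was -1.77 points (exact permutation p = 0.3). With unweighted CpG means and the run included it was -2.17 points (exact permutation p = 0.5). The exon CpGs in the run were at 1.03 to 2.03% in single embryos. For them the relative value therefore mostly follows the embryo's own level over the interval. The promoter, the introns and all TFPI2 CpGs differed by -4.92, -1.999 and -3.07 points on this scale (exact permutation p = 0.3, 0.5 and 0.3). Without the run the introns differed by -3.85 points and all TFPI2 CpGs by -3.89 points, each with an exact permutation p of 0.1. These 2 p-values are unadjusted, at the smallest possible value, and on sets made after the run was seen. With the run and without control 1, the promoter differed by -7.79 points, the introns by -0.546 and all TFPI2 CpGs by -1.68 (exact permutation p = 0.1, 1 and 0.4, with 0.1 the smallest that 2 against 3 embryos allow). Over all embryos left out in turn, the ranges were -7.79 to -3.46 points for the promoter, -3.67 to -0.546 for the introns and -4.23 to -1.68 for all TFPI2 CpGs.

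The annotated promoter sets most like that of TFPI2 over the 6 embryos were those of MIR489, PON3 and GNG11. Their root mean square differences from it were 4.80, 7.66 and 9.79 percentage points. MIR489, a microRNA gene within CALCR, was at 68.8 to 80.4% over 11 CpGs, and PON3, a paraoxonase gene, at 71.6 to 87.5% over 12. GNG11, the gene of another G protein gamma subunit, was at 63.7 to 74.4% over 9. At GNG11, as at TFPI2, a run of unmethylated CpGs lay downstream of the annotated promoter CpGs, with 0 of its 33 CpGs in the promoter set. The GNG11 run lay within 500 bp of the annotated GNG11 start, however. The nearest CpG of the TFPI2 run was 5523 bp from the annotated TFPI2 start. Of the 15 genes of this imprinted cluster and its neighbours with a promoter set, 2 were called higher in parthenotes (SGCE and PEG10) and 0 lower, by edgeR. The TFPI2 promoter was not among them.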

How the data were processed

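The deposited tables give, per the file headers, raw read counts at each CpG cytosine (C, and C or T) and the opposite-strand counts of G and of G or A. The authors also deposited an expected count, which is the C-or-T count multiplied by G over G-or-A on the other strand, and the methylation fraction with its interval. The submitters' processing notes name BSMAP 2.87 and Sscrofa11.1. Trimming, duplicate removal and the share of unconverted cytosines are not given in the sources used here.

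Counts of both strands of a CpG were summed. Totals were 380163 to 406443 C-or-T reads an embryo. Levels are methylated over total reads. Methylated and unmethylated counts were tested in edgeR 4.0.16 (R 4.3.3) by its quasi-likelihood test, each embryo having its own coverage term, over 12359 CpGs (10 reads or more in every embryo), 1911 windows of 500 bp and 48 promoter, exon and intron sets (at least 3 CpGs and 30 reads). Benjamini-Hochberg adjustment ran over each whole table, and adjusted values under 0.05 were called. The test was checked on simulated data. Other tests are exact permutation tests in Python 3.11.15. A CpG carried a variant sign if, in any embryo, A made up at least 20% of 10 or more reads on the other strand, or one strand lacked a call.

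The gene, lists and tests were chosen with earlier results of these data known. Named are the called CpGs, those with the largest difference each way, the lowest and the highest CpG, and the 3 nearest promoter sets. The unmethylated run, the lower stretch of the first intron, CpGs at the boundaries and the windows singled out were chosen after their values were seen. Alternatives were other coverage limits, window and flank sizes, another promoter definition, single strands, unweighted means, the authors' expected counts, CpGs without a variant sign, leaving out each embryo, a replicate block, limma 3.58.1 (also centred) and DESeq2 1.42.0. Leaving out the run was added after seeing the data.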

Additional observations from a re-analysis of the deposited data

How the results depend on the processing

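No TFPI2 CpG or window was called under any alternative that was run. An unadjusted p under 0.05 was reached by 4 of 92 CpGs and 2 of 18 windows without control 1. Without control 2 it was reached by 1 of 92 CpGs and 1 of 18 windows. It was also reached by 2 of 92 CpGs in centred limma, 1 of 114 with 5 reads as the limit and 1 of 91 without variant CpGs. None reached it in the other alternatives. The shares over the interval in these alternatives were not counted. Of 261 alternative values, 202 had the sign and the call of the reported value, most of them uncalled in both. With 1 embryo left out the sign-flip test cannot go under 0.0625, so the class-minus-flank differences could not pass it. They stayed at -9.83 to -7.02 points (promoter, start side), -13.4 to -11.5 (promoter, end side), -22.5 to -21.5 (intron, start side), -26.6 to -25.2 (intron, end side), -51.1 to -49.1 (exon, start side) and -55.6 to -52.6 (exon, end side). With 1 embryo left out the exon group difference was -4.85 to -1.53 points. Other uncalled group differences changed sign, at -7.75 to 1.97 points for the promoter, -0.496 to 2.65 for the introns and -1.76 to 0.784 for the introns minus the start-side flank.

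On the start side, a flank of 2000 bp holds only the few CpGs named above. With 2000 bp the promoter was 6.97 points above the start-side flank, and the introns were at -6.64 from it (exact permutation p = 0.188). The group differences on the start side were then 1.81 (promoter), 0.028 (exon) and 4.73 (intron), and 0.747 for the introns on the end side. With 10000 bp the promoter was at -7.56 (exact permutation p = 0.0625). Without CpGs with a variant sign the start-side group differences were 0.0091 (promoter) and 2.58 (intron), and with unweighted means 1.07 (exon) and 2.33 (intron). The exon difference was 0.604 on the plus strand, 0.847 unweighted and 1.46 without the run, and the promoter difference 1.69 on the plus strand. The introns were at -0.624 without the run and -0.0900 (log2 odds) in centred limma. Without the run the exons were 0.681 above the start-side flank. The causes of these changes were not tested. Leaving out the run removes its CpGs, and unweighted means give each CpG the same weight whatever its reads.

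Replicate numbers are shared by the groups, but nothing says that they pair embryos, and same-numbered embryos did not deviate together (r across CpGs of 0.0876, 0.0716 and -0.0894 for the 3 numbers). With a replicate block 0 CpGs and 0 windows of TFPI2 were called, and the differences of -1.69 (promoter), -3.47 (exon) and 1.23 (intron) had edgeR adjusted p of 0.804, 0.609 and 0.857.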
